A study of Rattus norvegicus with 28 samples.

Results

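Microglia, the resident macrophages of the brain, were read here through 6 of their marker genes in rat orbitofrontal cortex, a part of the frontal lobe involved in valuing rewards. The 6 genes are Aif1, Cx3cr1, C1qa, C1qb, Csf1r and Itgam. They were chosen by name as genes known to mark microglia, with earlier results of these data known. They were located by their Ensembl identifiers among the 26405 genes counted. The pairing of these identifiers with gene names came with the list; neither the count files nor the gene table used here pairs them, so it was not checked against an annotation. All 6 were present and all 6 passed the filter on low counts that left 15413 genes for testing.

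The libraries held poly(A) RNA from brain punches of Sprague Dawley rats, each pooled from 2 rats. The groups were rats that had self-administered saline or methamphetamine (meth), a psychostimulant, taken from the home cage 2 or 35 days into withdrawal. Each of these 4 groups had 4 libraries and its own sequencing index, so differences between groups cannot be told apart from the index. For the orbitofrontal samples the labels say only short or long, and the day behind each word was read from the series' design text. All groups were trained to self-administer an infusion, so saline rats carry the surgery and training too. Central amygdala samples (12 are listed) were not analysed here. The study asked how gene expression differs over the weeks in which meth craving grows.

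Microglia survey the tissue with fine processes and take up debris and synapses. Their survival depends on signalling through the receptor that Csf1r encodes, and neurons address them through the membrane-bound chemokine fractalkine, whose receptor Cx3cr1 encodes. Aif1 encodes IBA1, a calcium- and actin-binding protein whose antibody is the usual stain for these cells. Itgam encodes CD11b, the alpha chain of complement receptor 3. C1qa and C1qb encode subunits of C1q, which starts the classical complement cascade and is made in the brain mostly by microglia. Several drugs of abuse, meth among them, have been linked to microglial reactions. In bulk tissue fewer cells of a type and less RNA per cell cannot be told apart.

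C1qa and C1qb are neighbours, with 1 protein-coding gene, C1qc, between them in RefSeq's GRCr8 assembly. The 250 bases before their starts are shown because the complement subunits were the members with the closest genomic and functional tie. Capitals mark the PU box GAGGAA or its reverse complement TTCCTC, the letters known for binding by PU.1, a transcription factor that macrophages and microglia need. The sequences are RefSeq's, read 5′ to 3′ along the gene, for GRCr8 chr5:154419934-154420183 (C1qa) and chr5:154407828-154408077 (C1qb), both on the minus strand.
C1qa: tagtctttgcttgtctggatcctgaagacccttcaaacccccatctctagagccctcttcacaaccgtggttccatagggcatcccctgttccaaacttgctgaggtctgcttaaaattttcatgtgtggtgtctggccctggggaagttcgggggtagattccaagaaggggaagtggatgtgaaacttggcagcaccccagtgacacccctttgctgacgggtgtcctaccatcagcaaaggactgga
C1qb: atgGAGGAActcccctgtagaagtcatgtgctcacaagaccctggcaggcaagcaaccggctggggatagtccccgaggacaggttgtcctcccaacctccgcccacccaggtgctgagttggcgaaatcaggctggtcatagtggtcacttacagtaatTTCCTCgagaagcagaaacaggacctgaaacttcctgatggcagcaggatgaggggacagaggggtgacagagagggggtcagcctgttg
The C1qb window held the PU box 2 times, 247 bases before the start on the gene's strand and 90 bases before it on the opposite strand, and the C1qa window held none. Promoters of 5 of the 6 genes were matched by symbol. The Csf1r and Itgam windows held the letters 2 times each and the Cx3cr1 window none, so 3 of 5 windows held them, against 23.3% of 33469 promoters of the same length. Only these exact letters were searched. Such a match is a description of letters and not a site of binding, and a window without one is not shown to lack a site.

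No microglia marker gene was called in any comparison run. With edgeR's quasi-likelihood test and Benjamini-Hochberg adjustment over all 15413 genes, 0 of 6 passed an adjusted p of 0.05 in each of the 6 comparisons. Day 35 against day 2 averaged over both drug groups was not among them. The background in the 6 comparisons run was also low. It was 0.11% of all genes for meth against saline at day 2, 0% at day 35, 1.83% between the days in meth rats and 0% between them in saline rats. For the change of the meth effect from day 2 to day 35 it was 0.136%, and for the average over the days 0.013%. DESeq2 gave an adjusted p to all 6 genes in 4 of the comparisons, where it called 0 of them and between 5 and 554 genes in all. It gave one to none of the 6 for meth against saline at day 2, and to C1qa alone between the days in saline rats (not called), so it says nothing about the other members there. At an unadjusted p under 0.05 the comparisons held 1, 0, 3, 1, 0 and 1 members in the order above, against 10.5, 5.85, 16, 8.68, 9.62 and 6.89% of all genes.

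**Figure D1:**
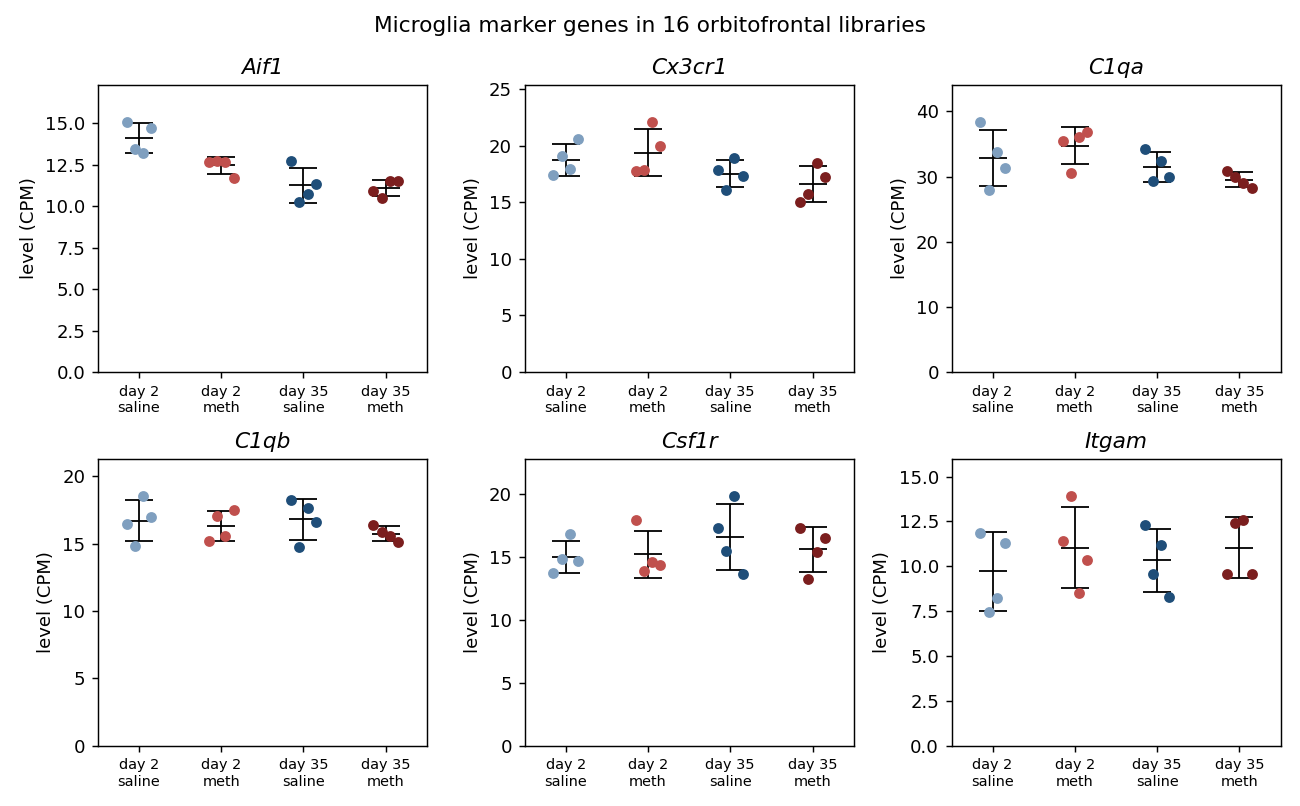
Level of each gene in counts scaled to library size (CPM) in the 16 libraries, by group; points are libraries and bars are the mean ± SD (n = 4). Aif1 lies between 13.2 and 15.1 CPM in the day 2 saline libraries and below 13 CPM in the other 12. For each of the other genes the compared groups overlap.

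Aif1 (ENSRNOG00000000853) showed the clearest separation of the 6. Its level, given as CPM after TMM scaling, was 15.1, 13.5, 13.2 and 14.8 in the day 2 saline libraries. It was 12.7, 12.8, 12.7 and 11.7 CPM in day 2 meth libraries. All 4 meth libraries lay below all 4 saline libraries at day 2, which held for 2.54% of all genes in that direction (1.85% at day 35, where no member separated). In day 35 saline libraries Aif1 stood at 12.7, 10.2, 10.7 and 11.3 CPM. In day 35 meth libraries it stood at 10.9, 10.5, 11.5 and 11.5 CPM. Within each drug group the day 35 libraries lay below the day 2 libraries without overlap, as they did for 2.04% of all genes in saline and 6.44% in meth rats. The order of group means was thus day 2 saline (14.1 ± 0.916, SD, n = 4), day 2 meth (12.5 ± 0.503), day 35 saline (11.3 ± 1.08) and day 35 meth (11.1 ± 0.489). The last 2 overlapped, and so did day 2 meth and day 35 saline.

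For Aif1 the log2 fold change of day 35 against day 2 in saline rats was -0.32 (SE 0.069, 95% interval -0.47 to -0.18). It ranked 15th of 15413 genes by p in that comparison but did not pass (edgeR adjusted p = 0.178). The same comparison in meth rats gave -0.16 (SE 0.067, edgeR adjusted p = 0.229). Meth against saline gave -0.18 at day 2 (SE 0.069, edgeR adjusted p = 0.352) and -0.02 at day 35 (SE 0.067, edgeR adjusted p = 0.986). The first of these comparisons shares the day 2 saline libraries with the third, and the meth effect at day 35 minus that at day 2 was 0.16 (95% interval -0.04 to 0.36, edgeR adjusted p = 0.632). The day 2 saline libraries were also the shallowest, at 20.33 to 23.54 M gene counts. With all libraries thinned to 20.33 M the fold change between the days in saline rats was -0.28 (edgeR adjusted p = 0.384). Without day 35 saline replicate 9, the library of that group with the highest Aif1 level, it was -0.39 (edgeR adjusted p = 0.0568).

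Cx3cr1 (ENSRNOG00000018509) and C1qa differed most between the days in meth rats. Cx3cr1 stood at 17.8, 17.8, 22.1 and 19.9 CPM in day 2 meth libraries and at 15.0, 15.8, 18.5 and 17.2 CPM in day 35 meth libraries. The groups overlapped through day 35 replicate 7, the 18.5 CPM library. The log2 fold change was -0.23 (SE 0.079, 95% interval -0.39 to -0.06), which did not pass (edgeR adjusted p = 0.15). In saline rats Cx3cr1 ranged from 17.4 to 20.6 CPM at day 2 and from 16.0 to 18.9 CPM at day 35, and the log2 fold change there was -0.10 (95% interval -0.27 to 0.07, edgeR adjusted p = 0.781). Between meth and saline its log2 fold change was 0.05 at day 2 (95% interval -0.12 to 0.22) and -0.08 at day 35 (95% interval -0.24 to 0.09). Without day 2 meth replicate 3, which held the 22.1 CPM, the fold change between days in meth rats was -0.16 (edgeR adjusted p = 0.372).

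C1qa (ENSRNOG00000012807), the first chain of C1q, stood at 35.5, 30.6, 36.0 and 36.8 CPM in day 2 meth libraries. It stood at 30.8, 30.0, 29.1 and 28.3 CPM in day 35 meth libraries. The groups overlapped only through the 30.6 CPM of day 2 meth replicate 2 and the 30.8 CPM of day 35 meth replicate 5. The log2 fold change was -0.23 (SE 0.078, 95% interval -0.40 to -0.07), with an edgeR adjusted p of 0.135. With sequencing lane in the fit, the adjusted p was 0.0521 for C1qa and 0.0818 for Cx3cr1, still above the threshold. In saline rats C1qa ranged from 28.0 to 38.3 CPM at day 2 and from 29.3 to 34.2 CPM at day 35 (log2 fold change -0.06, SE 0.080, edgeR adjusted p = 0.895). The meth effect on C1qa at day 35 minus that at day 2 was -0.18 (95% interval -0.41 to 0.06, edgeR adjusted p = 0.649), and for Cx3cr1 it was -0.13 (95% interval -0.36 to 0.11, edgeR adjusted p = 0.77). By this test neither C1qa nor Cx3cr1 was shown to differ between the drug groups in its course over withdrawal.

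C1qb (ENSRNOG00000012804), the partner subunit, showed no such gap in meth rats. Its levels were 15.2, 17.0, 15.5 and 17.5 CPM in day 2 meth and 16.4, 15.8, 15.6 and 15.1 CPM in day 35 meth libraries. The log2 fold change there was -0.05 (SE 0.071, 95% interval -0.20 to 0.09). In saline libraries C1qb ranged from 14.8 to 18.5 CPM at day 2 and from 14.8 to 18.2 CPM at day 35. Meth against saline gave -0.03 at day 2 (95% interval -0.19 to 0.12) and -0.10 at day 35 (95% interval -0.25 to 0.05). The group means of C1qb lay between 15.7 and 16.8 CPM, the narrowest span relative to level among the 6 genes.

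Csf1r (ENSRNOG00000018659), the receptor for the growth factors CSF1 and IL-34, and Itgam (ENSRNOG00000019728) varied within groups more than between them. Csf1r ranged from 13.7 to 16.8 CPM in day 2 saline and from 13.9 to 18.0 CPM in day 2 meth libraries. It ranged from 13.7 to 19.9 CPM in day 35 saline and from 13.3 to 17.4 CPM in day 35 meth libraries. Its log2 fold changes ran from -0.09, for meth against saline at day 35, to 0.14, for day 35 against day 2 in saline rats (SE 0.109 to 0.115). Itgam ranged from 7.46 to 11.9 CPM in day 2 saline, 8.49 to 13.9 CPM in day 2 meth, 8.29 to 12.3 CPM in day 35 saline and 9.57 to 12.6 CPM in day 35 meth libraries. Its largest log2 fold change was 0.19 for meth against saline at day 2, with a 95% interval of -0.21 to 0.59. With 1 library left out it ran from 0.05, without day 2 meth replicate 2, to 0.30, without day 2 meth replicate 3. No pair of compared groups separated for C1qb, Csf1r or Itgam.

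**Figure D2:**
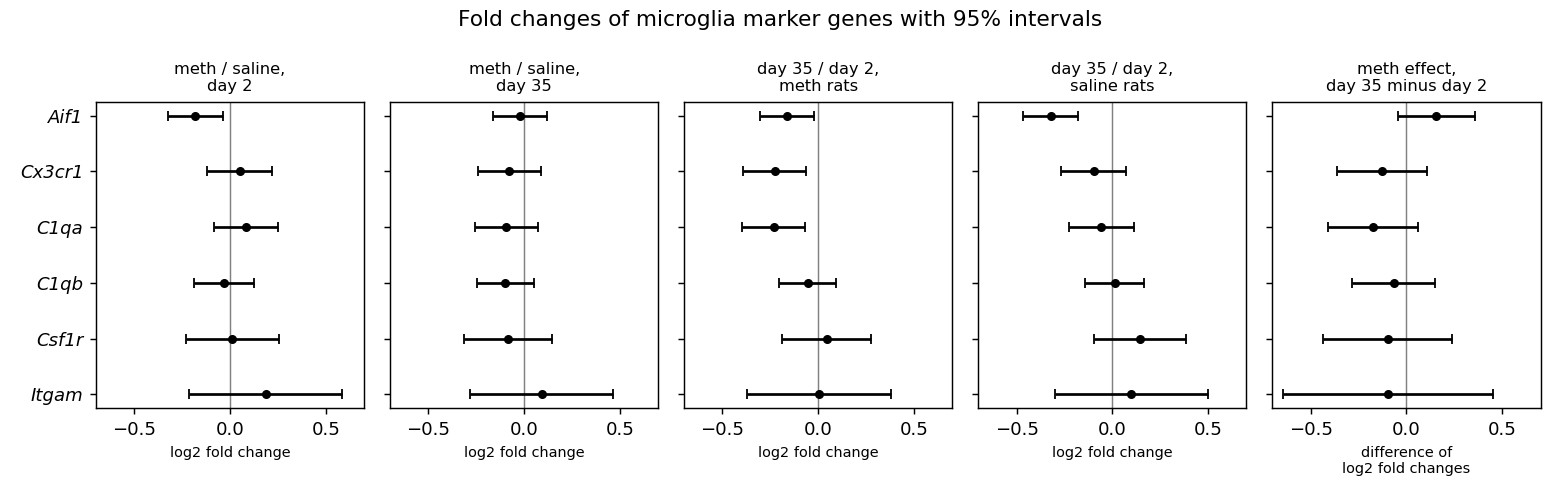
Log2 fold changes of the 6 genes with 95% intervals from edgeR, for 4 comparisons of groups and for the meth effect at day 35 minus that at day 2. The intervals of Aif1 lie below 0 in 3 of the 5 panels and those of Cx3cr1 and C1qa in the panel of meth rats, and none of these passed after adjustment over 15413 genes; the Itgam intervals are the widest.

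The intervals show the sizes of difference that these libraries allow. For meth against saline at day 2, the 95% interval of the fold change ran from 0.80 to 0.98 for Aif1. That interval leaves out 1, although Aif1 did not pass after adjustment (edgeR adjusted p = 0.352). It ran from 0.92 to 1.17 for Cx3cr1, 0.94 to 1.19 for C1qa, and 0.88 to 1.09 for C1qb. The interval was wider for Csf1r (0.85 to 1.19) and widest for Itgam (0.86 to 1.5). At day 35 it ran from 0.89 to 1.09 for Aif1, 0.85 to 1.06 for Cx3cr1, 0.84 to 1.05 for C1qa, 0.84 to 1.04 for C1qb, 0.80 to 1.10 for Csf1r and 0.82 to 1.38 for Itgam. The intervals are not adjusted for the number of genes.

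The signs of the fold changes were mixed. For day 35 against day 2 after meth, 4 of the 6 log2 fold changes were negative and 2 positive, with a median of -0.11 against 0.00 over all genes tested. In saline rats 3 were negative and 3 positive (median -0.02, against 0.00 over all genes). For meth against saline 2 were negative and 4 positive at day 2 (median 0.03), and 5 were negative and 1 positive at day 35 (median -0.08). Many of these values lie near 0: of the 24, 11 changed sign under at least 1 of the 25 alternatives run, among them Csf1r at day 2 under 6, and Itgam in meth rats and C1qb in saline rats under 4 each. The comparisons share groups, so their signs are not independent.

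The summed level of the 6 genes was 112.9, 97.7, 108.4 and 109.6 CPM in day 2 saline libraries and 110.5, 106.0, 109.4 and 110.7 CPM in day 2 meth libraries. It was 112.6, 95.5, 110.7 and 97.2 CPM in day 35 saline libraries and 100.1, 97.7, 102.7 and 98.2 CPM in day 35 meth libraries. The 4 day 35 meth sums lay below the 4 day 2 meth sums, and both lay within the range of the saline libraries. Taken as single genes, 6.44% of all genes tested lay lower at day 35 without overlap in meth rats. Sums of other genes were not made, so that share is no background for the sum. The sum is made of the levels already given and was not tested. C1qa contributes the most counts to the sum and therefore weighs most in it. Within groups the sum was lower where more reads fell in no counted feature (r = -0.63, permutation p = 0.0876, rho = -0.43, permutation p = 0.193, n = 16). Adjusted over the 3 technical measures compared, these p-values were 0.263 and 0.549, and without the 2 libraries farthest out r was -0.32. Against library depth r was 0.19 (permutation p = 0.722; rho = 0.22, p = 0.549), and -0.02 without the 2 farthest libraries. Against the share of multi-mapping reads r was 0.16 (permutation p = 0.499; rho = 0.22, p = 0.415), and 0.09 without the 2 farthest. The part of these measures in the levels was not tested further.

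**Figure D3:**
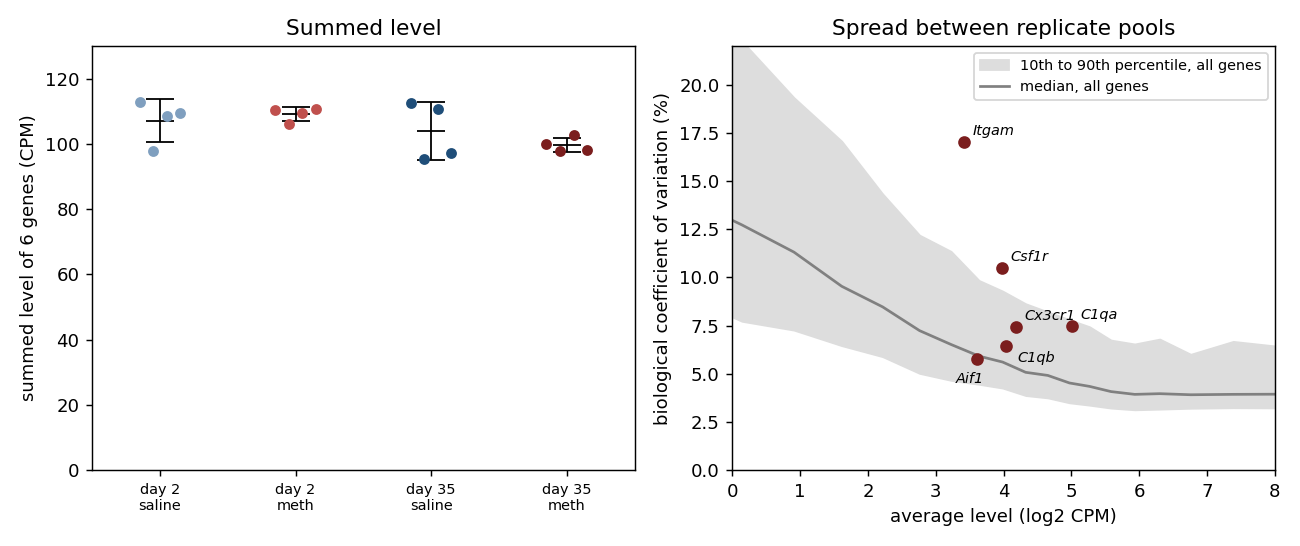
Left, summed CPM of the 6 genes per library with mean ± SD (n = 4 per group). Right, biological coefficient of variation from edgeR against average level for the 6 genes (points), with the median and the 10th to 90th percentile of all genes tested; Itgam at 17% and Csf1r at 10.5% lie above the band.

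The genes differed in how far they varied between pools of rats. The biological coefficient of variation, the spread between replicates beyond counting noise, was 17% for Itgam and 10.5% for Csf1r. Among the 500 genes nearest in level, these stood at the 96.6th and the 94th percentile. C1qa (7.47%) and Cx3cr1 (7.44%) stood at the 89.6th and the 82nd percentile of their own neighbours, C1qb (6.44%) at the 68.6th and Aif1 (5.75%) at the 43.6th. Counting noise alone, at 176 to 1649 reads per gene and library, gives coefficients of 3.14% for C1qa to 5.6% for Itgam. The observed coefficient within groups was 19.1% for Itgam, 12.3% for Csf1r and 6.51% for Aif1.

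The markers did not track one another closely from library to library. Correlations were computed on log2 CPM after removing the group means, since each group carries its own sequencing index and index and group cannot be told apart. Over the 15 pairs Pearson's r ranged from -0.11 to 0.45 with a median of 0.19, and 12 pairs were positive. The libraries are also paired by sequencing lane, and with lane means removed as well r ranged from -0.45 to 0.58 with a median of -0.02, and 7 pairs were positive. The median r of the members with all other genes was 0.00, and 28.4% of those values lay at 0.19 or above. No pair reached an unadjusted permutation p of 0.05 (0 of 15). Counting noise is part of the spread within groups, a coefficient of 5.07 against 6.51% for Aif1 and 5.6 against 19.1% for Itgam. It limits how high r can be, so a low r does not show that the genes vary separately.

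With group means removed, the highest values were those of Aif1 with Itgam and of C1qa with C1qb. For Aif1 and Itgam r was 0.45 (permutation p = 0.116, adjusted over 15 pairs 0.959) and rho 0.52 (permutation p = 0.0741, adjusted 0.932), n = 16. Without the 2 libraries farthest out r was 0.37. For C1qa and C1qb r was 0.45 (permutation p = 0.186, adjusted 0.959) and rho 0.45 (permutation p = 0.156, adjusted 0.932), n = 16, and r was 0.44 without the 2 farthest libraries. Csf1r had its highest value with C1qa at 0.19 (permutation p = 0.467, rho = 0.20, permutation p = 0.511) and Cx3cr1 with Aif1 at 0.22 (permutation p = 0.415, rho = 0.25, permutation p = 0.358). Without the 2 farthest libraries these were 0.13 and 0.10. With lane means also removed, Csf1r and C1qa turned to -0.45 and Cx3cr1 with Aif1 stood at 0.58, the highest of the 15, while Aif1 with Itgam stood at 0.47 and C1qa with C1qb at 0.32; these values were not tested.

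**Figure D4:**
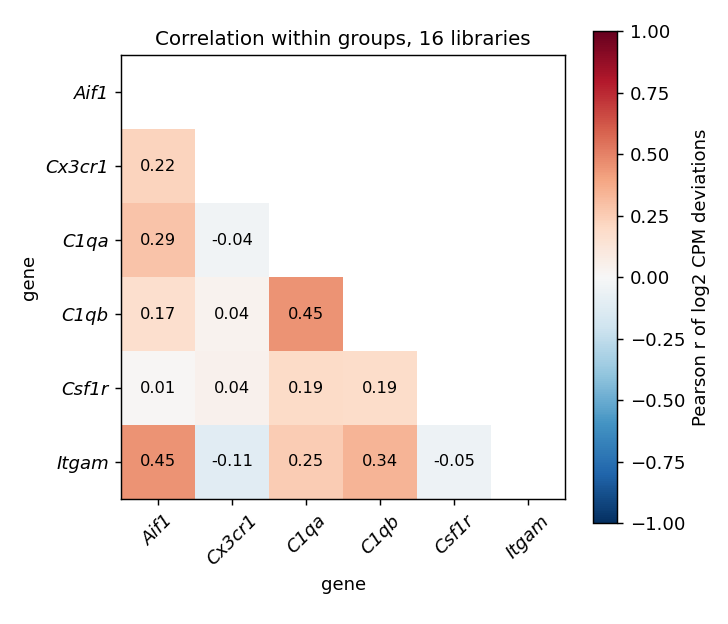
Pearson's r between the 6 genes over 16 libraries, computed on log2 CPM deviations from the group means; blue is negative and red is positive. Values range from -0.11 (Cx3cr1 with Itgam) to 0.45 (Aif1 with Itgam, and C1qa with C1qb), and none passed a permutation test; the values change with lane means removed, when Csf1r with C1qa is -0.45.

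Likeness across all 16 libraries, group differences included, was uneven among the members, and no member was the nearest gene of another. Of 15412 other genes, C1qa ranked 915th in correlation with C1qb (r = 0.43), and C1qb ranked 1284th with C1qa. Cx3cr1 ranked 1106th with Aif1 (r = 0.49). The closest member to Csf1r was C1qb at rank 3927 and the closest to Itgam was C1qb at rank 2889. The genes most like the mean profile of the 6 were ENSRNOG00000001223 (r = 0.87 over 16 libraries, 0.87 within groups) and ENSRNOG00000015277 (r = 0.86, 0.88 within groups). They are the highest of 15407 values, so their size is favoured by the search, and no name is paired with them here.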

How the data were processed

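RNA from punches of rat orbitofrontal cortex, 2 rats per pool, was sequenced (Illumina HiSeq, TruSeq RNA v2 poly(A) libraries), per the labels' protocols. The submitters' processing notes name TopHat, HTSeq and limma and the build rn4. The sources used here give no versions, annotation release or strand setting. The authors deposited 1 file of raw read counts per Ensembl gene for each library, without normalization. The 5 summary rows (31.13 to 32.61% of reads) entered neither library sizes nor tests. Gene counts ranged from 20.33 to 48.47 M (M, mega) per library.

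Genes were filtered with filterByExpr, scaled by TMM (factors 0.985 to 1.018) and fitted over all 16 libraries with 4 group means by glmQLFit (robust) and glmQLFTest (edgeR 4.0.16, R 4.3.3). Standard errors are the fold change over the root of F. Correlations used a prior count of 2 and 100000 two-sided permutations within groups. Replicates are separate pools per the design text; the 24 within-group pairs differed by 5.19 to 17.0 times the chi-square sampling noise, so none was treated as a repeat. Lanes 1 to 4 of the labels each held 1 library of the 4 groups, so libraries are paired by lane. Deviations from group means had a mean correlation of 0.026 in the 24 pairs on the same lane (from -0.272 to 0.24) and of -0.009 in the 72 others. Alternatives were median-ratio size factors, other filters, lane as a block, limma-voom (3.58.1), DESeq2 (1.42.0), fits restricted to the compared groups, thinning to the shallowest library, and leaving out libraries. The members and lists were chosen with earlier results of these data known. The rule for named genes took all 6 members, called members of other cell type lists, and the 2 identifiers most like the members. The other lists, perivascular macrophages and blood leukocytes among them, were not run, because 0 identifiers matched a name in the gene table. The labelled tissue, and any share of such cells in these levels, could therefore not be checked by other markers.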

Additional observations from a re-analysis of the deposited data

Results flagged for a closer look

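Of 28 sets of 4 values (6 genes and their sum in 4 groups), 2 held a library far from the other 3, where chance gives about 1 in 20. Aif1 was lowest in day 2 meth replicate 4, at 11.7 CPM against 12.7 to 12.8 CPM in the other 3, and without it meth against saline at day 2 was -0.15 on the log2 scale (edgeR adjusted p = 0.604). Csf1r was highest in day 2 meth replicate 1, at 18.0 CPM against 13.9 to 14.6 CPM, and without it the log2 fold change of meth against saline at day 2 was -0.08 in place of 0.01 (edgeR adjusted p = 0.834).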

How the results depend on the processing

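The count of members called was 0 in all 6 comparisons under each of the 25 alternatives that gave one (24 at day 2, and for the difference and the average, which use all groups). DESeq2 gave no adjusted p to 11 of the 36 member values: all 6 at day 2, where it yields no count of members, and 5 between the days in saline rats, among them Aif1 between the days in saline rats, whose unadjusted p there was 6.39e-05. Over all alternatives its edgeR or limma-voom adjusted p ranged from 0.0568 to 0.632. Of 888 member fold changes under alternatives, 841 kept their direction and 47 changed sign, none of them called. Lane as a replicate block changed no call of a member; it took the median correlation of the pairs from 0.19 to -0.019, and C1qa averaged over the days to 0.000. With limma-voom, Csf1r at day 2 was -0.004. Thinned, the day 2 meth effect was 0.000 for C1qb and -0.013 for Csf1r, C1qb between days in saline rats -0.002, the effect difference of Csf1r 0.004, and the averages of Cx3cr1 and C1qa 0.003 and 0.016. With both day 2 meth replicate 1 and day 2 saline replicate 13 left out, Csf1r was -0.112 at day 2 and 0.027 for the effect difference, and C1qa 0.025 between days in saline rats and 0.029 averaged. The causes were not tested.

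With 1 library left out, meth against saline at day 2 ran from -0.018 to 0.092 for Cx3cr1, -0.089 to 0.018 for C1qb and -0.077 to 0.067 for Csf1r. At day 35 it ran from -0.066 to 0.046 for Aif1, -0.167 to 0.009 for Csf1r and -0.001 to 0.194 for Itgam. Between the days it ran from -0.01 to 0.132 for Csf1r and -0.107 to 0.142 for Itgam in meth rats. In saline rats it ran from -0.127 to 0.022 for C1qa, -0.043 to 0.068 for C1qb and -0.01 to 0.203 for Itgam. The effect difference ran from -0.205 to 0.045 for Itgam, and the average from -0.047 to 0.01 for Cx3cr1, -0.041 to 0.033 for C1qa and -0.081 to 0.009 for Csf1r. The median pair correlation ran from 0.073 to 0.249 and the median coefficient of variation from 6.98 to 7.69%. Over all genes the counts called were 17, 0, 282, 0, 21 and 2 with edgeR and 115, 5, 554, 37, 83 and 29 with DESeq2, in the order of the report; with lane as a block the effect difference called 4, with median-ratio factors 8, and under the other edgeR and limma-voom fits that keep all libraries 7 to 18. With 1 library left out the counts were 6 to 21, 0 to 1, 104 to 305, 0 to 2, 0 to 17 and 1 to 4.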
